A study of Mus musculus with 4 samples.

Results

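The comparison described here set a kidney sample of vancomycin-injected mice against one of saline-injected mice, with the injection at zeitgeber time 14 (ZT14) in both. Zeitgeber time is counted in hours from lights on. The mice were of the outbred ICR stock, and the kidney was taken 1 day after injection. Each of the 2 groups had 1 single-colour Agilent array, of 4 arrays in the series. The other 2 arrays, saline and vancomycin injected at ZT2, were used only to give their values beside those of ZT14. The labels did not state the dose, the age or sex of the mice, or how many mice made up a sample. The members were all gene entries with a probe well above background on at least 1 of the 2 arrays, which were 23990 of 37074 entries. With 1 array a side there is no spread between animals, no test was run, and every difference below is a size. On the slide, saline lay at position 1.1 and vancomycin at position 1.2, so that position and treatment cannot be told apart.

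Vancomycin is a glycopeptide antibiotic that is filtered at the glomerulus, taken up in part by the proximal tubule and able to injure it at high exposure. The kidney is built from nephron segments with distinct transporters, and it also holds vessels, urothelium, resident macrophages, lymphocytes and antibody-producing plasma cells. Tubule cells run their own circadian clock, a loop in which BMAL1 and CLOCK activate genes through E-box sites and the products of some of these genes repress them in return. An array of whole kidney sums all these cells, and fewer cells of a type and less RNA per cell cannot be told apart.

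Processed signals had a 75th percentile of 678.1 with saline and 651.1 with vancomycin, and 64.7% and 62.2% of the spots were well above background. No spot was saturated (0 on each array). Repeated spots of a probe varied within an array by a median SD of 0.049 and 0.047 (log2). From these spots alone the SD of a single-spot difference was 0.068, which leaves out labelling and hybridization differences between the arrays. Pearson's r between the arrays was 0.99 across 22284 genes measured on both, which are not independent replicates. Kidney markers were present. All 15 markers of the first proximal tubule segments, 12 of the last one, 14 of the thick ascending limb, 12 of collecting duct principal cells and 14 of podocytes were well above background on both arrays. The Y-linked gene Eif2s3y gave a signal of 1204 with saline and 1232 with vancomycin.

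Differences are given as vancomycin minus saline in log2 units after both arrays were set to the same 75th percentile. A difference of 1 is 2-fold, and a gene is counted as higher or lower below when it passed 2-fold. By this rule 380 genes were higher with vancomycin, 1.58% of those measured, and 684 were lower, 2.85%, together 4.44%. The median difference was 0, with 48.9% of the genes below 0, and quartiles of -0.19 and 0.18. By 4-fold or more 46 genes were higher and 117 lower, and by 8-fold or more 17 and 26. A gene above background on a single array has only a bound, since the dim side was raised to the lowest signal well above background. Such bounds made up 110 of the higher and 166 of the lower genes. Without them 270 of 22284 genes were higher, 1.21%, and 518 were lower, 2.32%. Counts of list members below are to be read beside the shares over all measured genes, 1.58% higher and 2.85% lower.

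The share past 2-fold was larger among dim genes. In the dimmest of 5 equal groups of genes, with a median saline signal of 22.7, 4.15% were higher and 5.02% lower. In the brightest group, with a median of 9280, these shares were 0.292% and 0.834%. The interquartile range of the difference narrowed from 0.668 to 0.232 from the dimmest group to the brightest. A 2-fold difference thus had fewer like it among bright genes such as Scrn2, a secernin-family gene, whose signal was 50267 with saline and 15206 with vancomycin. Its difference was -1.67 by 1 probe and -1.64 by another.

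**Figure D1:**
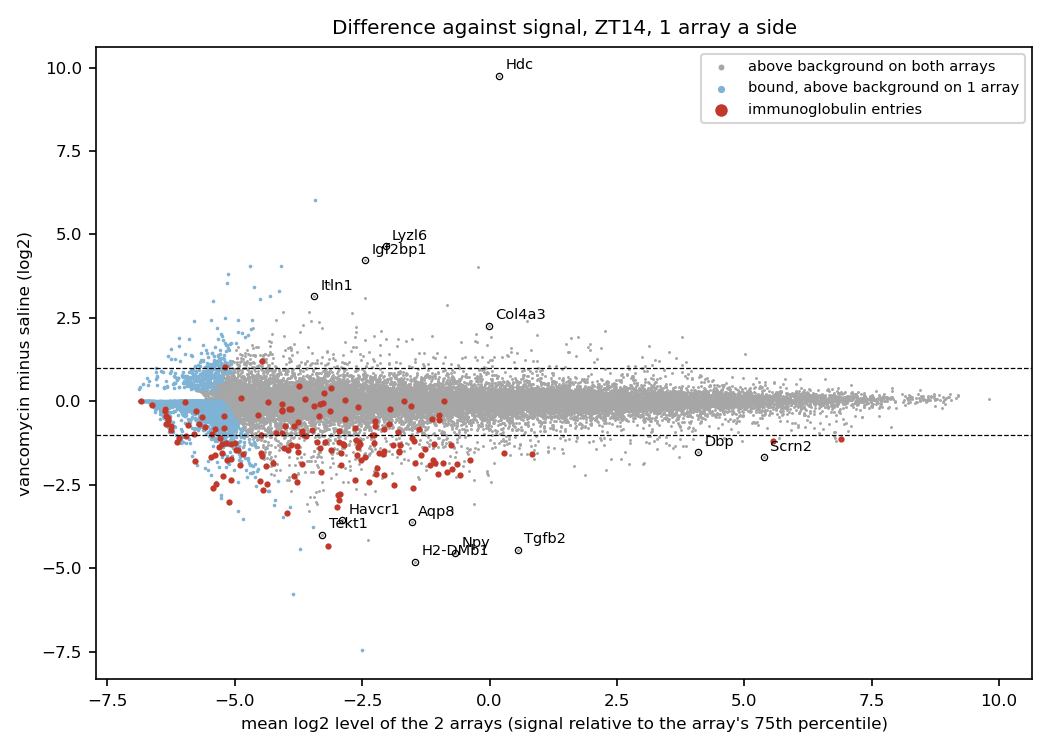
Each point is a gene entry, with the mean log2 level of the 2 arrays on the horizontal axis and vancomycin minus saline (log2) on the vertical axis. Dashed lines mark 2-fold, blue points are bounds and red points the immunoglobulin entries, of which most lie under 0, and Hdc stands apart at 9.75.

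The largest difference belonged to Hdc, which encodes histidine decarboxylase, the enzyme that makes histamine. Its brightest probe read 26.3 with saline and 21848 with vancomycin, a difference of 9.75 or 864-fold. A second probe read 23.7 and 224, a difference of 3.30, and the last was above background with vancomycin alone, at 678. All 3 probes were thus high on the vancomycin array, by very unequal sizes. Injection at ZT2 gave the opposite sign by the brightest probe, with -7.46. Among the other genes of histamine and mast cells, Aoc1, which encodes the diamine oxidase that degrades histamine, read 1300.0 and 501, a difference of -1.32. The mast cell protease gene Tpsb2 differed by 0.69, and of the 10 measured genes of that list 1 was higher and 1 lower.

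Next in size among the higher genes with an ordinary symbol were Lyzl6, a lysozyme-like gene, at 4.65 (signal 33.0 and 797), and Igf2bp1, an mRNA-binding protein gene of growing tissue, at 4.24 (28.8 and 521). Both rest on 1 probe. Atoh7, a transcription factor gene of the retina, followed at 3.51, and Itln1, an intelectin gene, differed by 3.15 and 2.29 by its 2 probes. Hesx1, Gfra1, Il1rl2 and Mansc4 came at 2.67, 2.40, 2.37 and 2.22. Saline signals of these genes were dim (16.2 to 51.1). Col4a3, a collagen chain of the glomerular basement membrane, had a brighter start and read 307 and 1422. At ZT2 Hesx1, Gfra1, Il1rl2 and Mansc4 differed by -0.18, -0.13, 0.01 and 0.02, Lyzl6 by 0.51 (a bound), Igf2bp1 by 0.93, Atoh7 by -0.76, Itln1 by 0.22 and 1.17, and Col4a3 by 2.5.

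Some genes were above background with vancomycin only. Nrg2, a neuregulin growth factor gene, was at least 11.8-fold higher and Mc3r, a melanocortin receptor gene, at least 8.88-fold. Chgb and Chga, granins of secretory granules, were at least 5.70-fold and 5.43-fold higher. These 4 genes read 2.78 to 11.5 with saline, which is near or under the lowest signal called well above background there, 11.3.

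Among the lower genes, H2-DMb1, a chaperone of antigen loading on MHC class II, read 1308 with saline and 45.0 with vancomycin, a difference of -4.80. Tgfb2, a ligand of the TGF-beta family, read 4656 and 206, with -4.44 by 1 probe and -4.14 by another. Npy, the neuropeptide Y gene, differed by -4.54 (2050 and 84.8). Tekt1, a structural gene of cilia and flagella, differed by -3.998, Aqp8, a water channel gene, by -3.61, and Synpr, a synaptic vesicle gene, by -3.27. Havcr1, the kidney injury molecule of damaged proximal tubules, read 313 with saline and 25.4 with vancomycin, a difference of -3.56. It had read the other way at ZT2, with 3.89. Lta, a lymphotoxin gene, was at -3.08, Slco1b2, an organic anion transporter gene, at -3.07, and Col6a4 at -3.02. Above background with saline only was Spink6, a serine protease inhibitor gene, with the largest lower bound. It read 2486 and 5.48 and was at least 176-fold lower. Others were Gabra3, a GABA receptor subunit gene that was at least 21.7-fold lower, Sprr2f, a gene of epithelial envelopes, at least 11.1-fold lower, and Ces1a, a carboxylesterase gene, at least 7.49-fold lower.

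Immunoglobulin genes were the largest group on the lower side among the lists examined. They encode the antibody chains made by B cells and plasma cells. Most stand on the array under transcript identifiers and were found through their descriptions, a set drawn up after values of these data had been seen. Of 224 such entries 168 were measured, of which 157 lay below 0, 102 were lower by 2-fold or more (60.7%, against 2.85% of all genes) and 2 were higher. Over the 119 entries above background on both arrays 74 were lower and 1 higher. The median difference was -1.24, with quartiles of -1.75 and -0.66, and the summed signal was 199800 with saline and 84690 with vancomycin. They supplied 14.9% of all lower genes. Without them 582 of 23822 genes were lower, 2.44%.

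The 3 antibody loci had similar medians. Of 83 kappa entries 51 were lower, with a median of -1.30. Of 81 heavy chain entries 47 were lower, with a median of -1.22. All 4 lambda entries were lower, with a median of -1.20. The constant regions of the kappa chain and of IgA were the brightest entries of the set. The kappa constant region read 48229 with saline and 20279 with vancomycin, a difference of -1.19. The constant region of IgA read 119360 and 52855 (-1.12), that of IgM 682 and 183 (-1.84), and that of IgG2c 588 and 92.9 (-2.60). A second IgM probe gave -0.83. Not all constant regions differed by this much, since the dim Ighg3, of IgG3, differed by -0.24 and entries of IgD by -0.03 and, as a bound, -0.98. Jchain, which joins IgA and IgM into polymers, read 7012 and 2852.

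Variable-segment probes are alike in sequence, so these entries are not independent of each other. The probe of 87 of the 168 measured entries, 51.8%, shared a run of at least 20 bases with that of another. Among the other 81 entries 44 were lower, with a median of -1.12. The following pairs of kappa probes show how close they are. Each is 60 bases long, from the array files, and differs from its partner at 5 bases, which are in capitals.

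Igkv4-72: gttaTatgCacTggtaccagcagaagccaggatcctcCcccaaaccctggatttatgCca

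Igkv4-54: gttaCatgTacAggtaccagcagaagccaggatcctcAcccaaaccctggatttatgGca

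Igkv4-68: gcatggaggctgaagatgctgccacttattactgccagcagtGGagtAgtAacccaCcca

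Igkv4-62: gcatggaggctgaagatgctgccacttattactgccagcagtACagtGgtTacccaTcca

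In the mm9 coordinates of the array files these probes lay at chr6:69176986-69177045, chr6:69581780-69581839, chr6:69254828-69254887 and chr6:69349806-69349865, within the kappa variable segments their descriptions name. Igkv4-72 read 369 and 155, a difference of -1.19, and Igkv4-54 read 134 and 55.3, a difference of -1.21. Igkv4-68 read 951 and 272 (-1.75), and Igkv4-62 read 822 and 195 (-2.02). A separate entry under the symbol Igkv4-72, with a probe at another position, read 190.4 and 155, a difference of only -0.24. Signals of 2 such probes can include each other's transcripts, which was not tested here.

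These loci also stood out by position. On chromosome 6, 6.63% of the genes were lower and on chromosome 12, 6.96%, against 1.20% to 3.63% on the other autosomes and X. Leaving out the immunoglobulin entries, 2.93% of the other 1229 genes on chromosome 6 and 2.49% of the other 884 on chromosome 12 were lower. T cell receptor segments, built in the same way but expressed by T cells, are given for comparison. Of 20 measured entries 1 was lower, and their median was 0.05. They were dim, with a summed signal of 1840 with saline and 1526 with vancomycin. The 5 measured T cell receptor entries found by symbol had a median of -0.11.

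**Figure D2:**
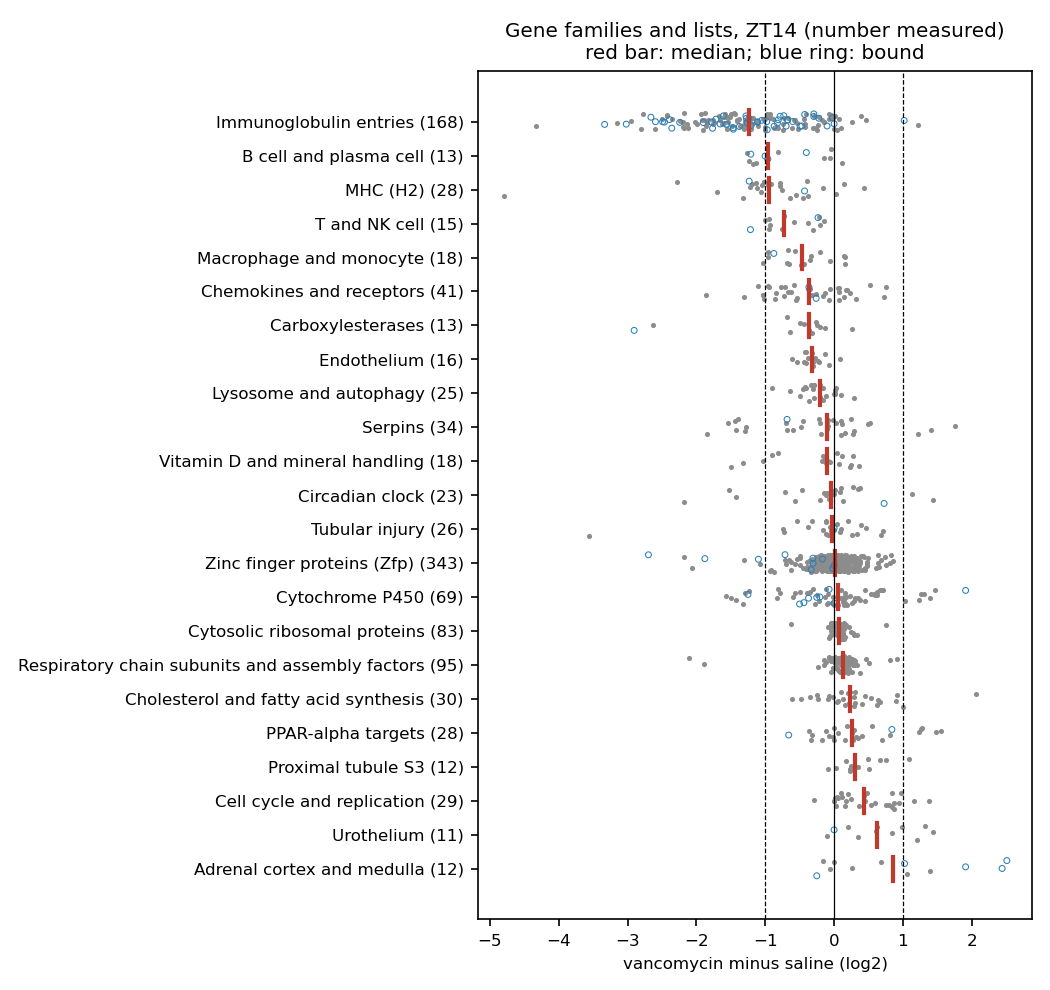
Each grey point is a gene, placed by vancomycin minus saline (log2). Blue rings are bounds, red bars are list medians and the number measured stands in brackets. Immunoglobulin, B cell and MHC genes centre near -1, respiratory chain and ribosomal genes lie in a narrow band just above 0, and urothelial and adrenal genes centre between 0.5 and 1.

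Other B cell and plasma cell genes also centred below 0. Of 13 measured markers 12 lay below 0, with a median of -0.96. By 2-fold or more 6 were lower, 46.2% against 2.85% of all genes, and 4 of the 9 above background on both arrays. The summed signal was 9051 with saline and 4324 with vancomycin. Pou2af1, a B cell transcription coactivator gene, read 73.8 and 29.3 (-1.27), Mzb1, an antibody-secretion cofactor gene, 248 and 105 (-1.18), and Cd79b, a signalling subunit of the B cell antigen receptor, 181 and 78.6 (-1.14). By contrast Cd22, another B cell surface gene, read 820 and 752 by its brightest probe. The other Cd22 probes were above background on neither array. Most of the probes of this list were dim. Normexp background correction adds an offset to every signal, which changes dim ones most. With normexp the list median was -0.25 and that of the immunoglobulin entries -0.525. The part of B and plasma cell number in the immunoglobulin differences was not tested.

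T and NK cell markers lay below 0 but mostly within 2-fold. All 15 measured markers lay below 0, with a median of -0.74, and 1 passed 2-fold, the receptor gene Klrb1c, at least 2.32-fold lower. With normexp the median was -0.25. Nkg7 and Gzma, genes of cytotoxic granules, read 137 and 66.0, and 149.7 and 74.4. Ccl5, a chemokine gene of T cells, read 741 and 197, a difference of -1.86. Its chemokine family of 41 had 6 lower, 14.6% against 2.85% of all genes, and 0 higher. The family median was -0.36 (-0.12 with normexp). Lymphotoxin genes Lta and Ltb differed by -3.08 and -1.102.

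The 18 markers of monocytes and macrophages centred on -0.47, of which 15 lay below 0 and 1 was lower by 2-fold, the chemokine receptor gene Ccr2 at -1.04. Cx3cr1 read 506 and 250, and Aif1 501 and 248. The brightest markers of that list, Ly6c1 and Itgam, differed by 0.16 and 0.15, and the summed signal was 95480 and 96430. Endothelial markers lay in a narrow range, from -0.61 for Vwf to 0.09 for Esam, and 15 of 16 were below 0, with a median of -0.32. No endothelial marker passed 2-fold (0 of 16), and a second Vwf probe gave 0.87.

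MHC genes present peptides to T cells, class I on nearly all cells and class II on professional antigen-presenting cells. Of 28 measured H2 genes 25 lay below 0, with a median of -0.94. By 2-fold or more 13 of the 28 were lower, 46.4% against 2.85% of all genes, and 0 higher. Class I genes made up 21 of the 28, 10 of them lower, with a median of -0.96. They are related genes, so their probes can share signal, which was not tested. Several were bright. H2-T23 read 13446 with saline and 5146 with vancomycin (-1.33), H2-D1 10755 and 4965 (-1.06), H2-K1 17516 and 9974 (-0.75) and H2-Q7 6774 and 3208 (-1.02). Each of these 4 genes had the higher signal on the saline array. Sizes varied between probes of a gene. A second, much dimmer H2-T23 probe gave only -0.29. The second H2-K1 probe gave -1.02, and the other H2-Q7 probes gave -0.71 and -1.45. B2m, the gene of beta-2-microglobulin that class I molecules carry, differed by only -0.16.

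Class II genes differed among themselves. H2-DMb1 and H2-Aa, at -4.80 and -2.28, were far lower, H2-Ab1 differed by -0.39 and H2-Eb1 by 0.44 (6422 and 8373). At ZT2 the H2-Eb1 difference was -4.24 and that of H2-DMb1 1.08. ICR is an outbred stock and H2 genes are among the most variable of the genome, so animals can carry different alleles under a probe. Alleles were not measured. Probes of H2-Q10, a secreted class I gene, gave -1.02, -0.73, 1.32 and 2.12, both signs past 2-fold within 1 gene. It was counted as lower by its brightest probe, at -1.02. On chromosome 17 from 34 to 36 Mb (mm9), a window picked after its values were seen, 15 of 133 genes were lower and 6 higher. Over all genes these shares were 2.85% and 1.58%. Besides H2 genes the lower ones included Lta and Ltb, and the higher ones included C4b, Cyp21a1, Hspa1a and Hspa1b. The next window, to 38 Mb, had 9 lower and 3 higher of 61.

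**Figure D3:**
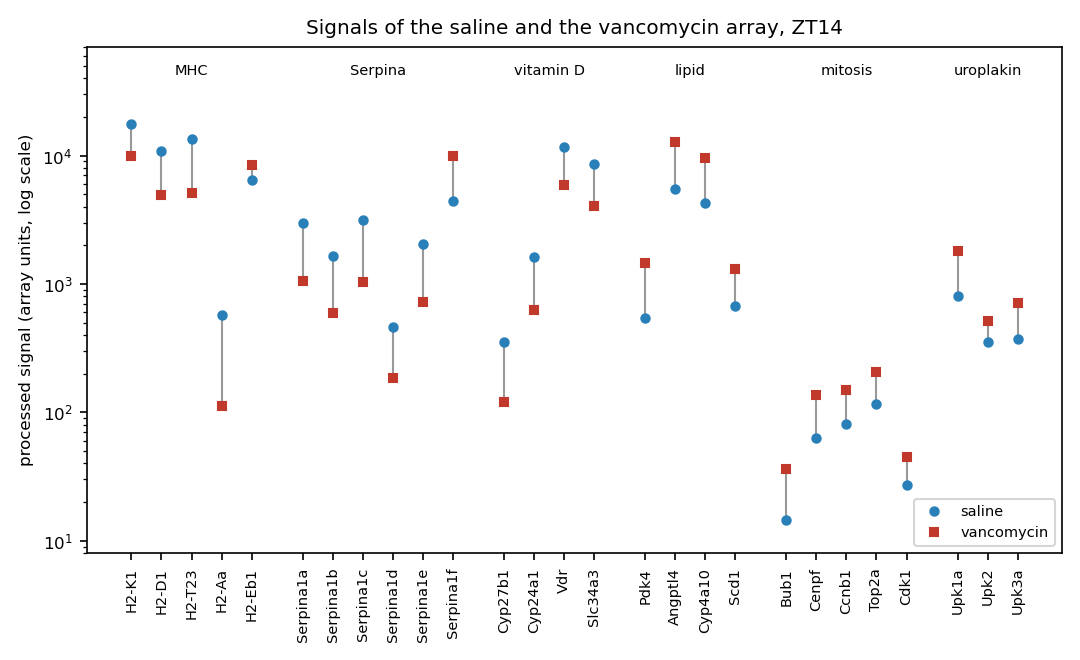
Processed signal (log scale) of single genes on the saline array (blue circles) and the vancomycin array (red squares), by group. MHC class I, Serpina1a to Serpina1e and vitamin D genes sit higher with saline, and lipid, mitotic and uroplakin genes sit higher with vancomycin.

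The circadian clock list had members past 2-fold in both directions. Of 23 measured members 2 were higher and 3 lower, with a median of -0.05. The 3 lower genes are targets that BMAL1 and CLOCK activate. Ciart, which encodes a repressor of this activator pair, read 178 and 37.7 (-2.18), Dbp, a PAR-domain transcription factor gene, 19663 and 6580 (-1.52), and Nr1d1, the gene of the repressor REV-ERB-alpha, 221 and 79.1 (-1.42). The 2 higher genes, which REV-ERB proteins repress, were Arntl, which encodes BMAL1, at 117 and 247 (1.14) and Nfil3, a gene that opposes Dbp, at 597 and 1556 (1.44). The Dbp and Nfil3 differences were past 2-fold by both probes of each gene, and that of Arntl by both probes above background on both arrays and, as a bound, by another. A second Ciart probe, above background with saline only, gave a bound of -0.12. At ZT2 the brightest probes of Ciart, Dbp and Arntl differed by -2.17, -2.12 and 1.11, and the list median was -0.11. Other targets of this pair did not pass 2-fold. Tef, a relative of Dbp, differed by -0.47, Per3 by -0.71, Nr1d2 by -0.57, Per1 by -0.14, Per2 by 0.08, Cry1 by 0.34 and Bhlhe40, a repressor gene, by 0.37. Clock itself differed by -0.05 (0.94 by its highest probe).

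The E-box read as CACGTG, a palindrome, was looked for in the 250 bases before the start of each gene (RefSeq promoter table, GRCm38.p6). It stood in 6.02% of 32851 promoters, and in at least 1 promoter of 6.86% of 27025 genes. Of 23 measured clock genes 17 had a promoter in the table and 4 of these held it, Ciart, Per1, Cry1 and Tef. The windows of 3 of them follow, 5′ to 3′ on the gene's strand with E-boxes in capitals. They show that Ciart alone of these genes held 3 copies.

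Ciart: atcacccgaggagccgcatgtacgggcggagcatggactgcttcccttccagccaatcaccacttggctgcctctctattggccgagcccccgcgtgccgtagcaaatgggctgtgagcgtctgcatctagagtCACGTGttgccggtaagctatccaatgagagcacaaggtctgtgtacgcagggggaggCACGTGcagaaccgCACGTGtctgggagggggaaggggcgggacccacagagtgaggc

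Tef: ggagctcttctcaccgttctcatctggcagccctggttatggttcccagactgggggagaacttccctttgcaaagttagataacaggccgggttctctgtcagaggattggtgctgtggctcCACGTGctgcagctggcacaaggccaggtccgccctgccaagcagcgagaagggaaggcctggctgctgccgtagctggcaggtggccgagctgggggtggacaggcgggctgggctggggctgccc

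Cry1: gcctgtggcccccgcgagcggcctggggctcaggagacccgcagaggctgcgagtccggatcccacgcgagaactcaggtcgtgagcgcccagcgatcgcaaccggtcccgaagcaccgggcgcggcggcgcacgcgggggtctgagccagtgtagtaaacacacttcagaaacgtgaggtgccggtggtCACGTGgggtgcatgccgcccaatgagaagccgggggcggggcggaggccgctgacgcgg

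These windows were chr3:95882229-95882478 on the minus strand, chr15:81802423-81802672 on the plus strand and chr10:85185055-85185304 on the minus strand. The E-boxes of Ciart began 116, 58 and 44 bases before its start. With -2.18 for Ciart, -0.47 for Tef and 0.34 for Cry1, the genes with a match did not share a direction, and Dbp and Nr1d1, both lower, had none within this window.

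Heat shock genes were measured as a family of 86 chaperones and co-chaperones. Its median was 0.07, and 2 members were higher and 0 lower by 2-fold. The pair was Hspa1a, at 1562 and 6467 (2.11), and Hspa1b, at 1465 and 4590 (1.71), the stress-inducible HSP70 genes. They are close copies, and their probes may not tell them apart. At ZT2 they differed by 2.15 and 1.68. Dnajb1 and Hsph1, which assist HSP70, differed by 0.71 and 0.69. The heat shock element was searched on both strands as the units TTC, GAA and TTC, or GAA, TTC and GAA, with 2 free bases between units, and stood in 0.466% of promoters. It was present in 3 of the 70 family members with a promoter there, against 0.514% of all genes there. These were Dnajb6, Hspd1 and Hspe1, with differences of 0.03, 0.10 and -0.03. Neither Hspa1a nor Hspa1b held these letters in its window. Of 28 genes that respond to unfolded proteins or halted translation 1 was higher, the transcription factor gene Ddit3 at 1.12, with 273 and 571 (0.42 by a second probe).

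Genes of interferon response as a family of 57 had 1 higher and 3 lower members and a median of -0.10. These were 1.75% and 5.26% of the family, against 1.58% and 2.85% of all genes. The lower ones were Isg20, an exonuclease gene (-1.23), Gbp4, a guanylate-binding protein gene (-1.09), and Irf4, a lymphocyte transcription factor gene that was at least 2.12-fold lower. Its higher member, Gbp8, read 34.9 and 75.2. The interferon response element, searched on both strands as GAAA, 2 free bases and GAAAC, stood in 0.685% of promoters. Of 85 measured interferon and MHC genes 57 had a promoter in the table. It stood in 14 of these genes, against 0.796% of all genes there, and H2-T22 was the only MHC gene with it. The genes with the element had a median of -0.07 and those without it -0.55.

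Lists of fat burning and of lipid synthesis had medians above 0. Of 28 targets of PPAR-alpha, the receptor that switches on fatty acid oxidation in fasting, 5 were higher and 0 lower. The higher share was 17.9%, against 1.58% of all genes, and the list median was 0.26. Pdk4, a brake on glucose oxidation, read 544 and 1450 (1.47), Angptl4, an inhibitor of lipoprotein lipase, 5496 and 12845 (1.28), and Cyp4a10, a fatty acid hydroxylase, 4230 and 9534 (1.23). The dehydrogenase genes of the beta-oxidation cycle itself lay close to 0, such as Acadvl at 0.16 and Hadha at 0.05.

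In the list of cholesterol and fatty acid synthesis 22 of 30 genes lay above 0, 2 were higher and 0 lower, with a median of 0.23. Scd1, the stearoyl-CoA desaturase gene, read 672 and 1297 (1.01). Hmgcs1, an early enzyme of the pathway, read 51810 and 78885 (0.66). Fasn, the fatty acid synthase gene, differed by -0.35 and Mvk, the mevalonate kinase gene, by 0.64. At ZT2 the list median was -0.06.

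Vitamin D metabolism had genes lower on both its arms. Cyp27b1, which makes the active hormone in the proximal tubule, read 354 and 120 (-1.496). Cyp24a1, which degrades it, read 1623 and 625 (-1.32). Vdr, the receptor, read 11550 and 5911 (-0.91, and -0.32 by a second probe), and Slc34a3, a phosphate carrier of the brush border, 8651 and 4044 (-1.04). The other 14 genes of the list of 18 did not pass 2-fold, and Slc34a1, the main phosphate carrier, differed by 0.25 and Kl, the klotho gene, by -0.15. The ZT2 differences of Cyp27b1, Cyp24a1, Vdr and Slc34a3 were 1.13, 0.52, 0.76 and 0.04.

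Some close gene copies differed alike. The 5 alpha-1-antitrypsin genes Serpina1a to Serpina1e, inhibitors of neutrophil elastase, were all lower, within the narrow range of -1.55 to -1.28. Serpina1c read 3159 and 1039 and Serpina1a 2963 and 1061. Over the whole Serpina cluster 6 of 17 genes were lower and 3 higher. The other lower one was Serpina10, at -1.85 and, by a second probe, -0.84, and the higher ones were Serpina1f, Serpina6 and Serpina3a, at 1.22, 1.41 and 1.76. Serpina1a to Serpina1e have near-identical sequences, and their probes may not tell them apart. At ZT2 the 5 genes had a median of -0.15.

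A window of chromosome 3 from 98 to 100 Mb (mm9), chosen after its values were seen like the next, held 7 higher genes of 19. Among them were Hao2, a peroxisomal oxidase gene (4656 and 12455, 1.48), and 3 genes of the steroid enzyme family 3-beta-hydroxysteroid dehydrogenase, Hsd3b3 (1.86), Hsd3b6 (1.30) and Hsd3b1 (1.05). The brightest member of that family, Hsd3b2, differed by 0.22. The 3 osteocalcin-family genes on the same chromosome were also higher, Bglap3 at 2.10, Bglap2 at 1.63 and Bglap at least 3.20-fold. Probes of related genes such as these can share signal.

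Drug-handling families were mixed. Of 69 cytochrome P450 genes 7 were higher and 7 lower, 10.1% each against 1.58% and 2.85% of all genes, with a median of 0.06. On the lower side, besides the vitamin D enzymes, were Cyp2c68, Cyp2c69 and Cyp2c67 (-1.57, -1.42 and -1.29), which are near-identical copies. On the higher side were Cyp4f15 (1.47), Cyp4f14 (1.31) and Cyp4a14 (1.27). Of 13 carboxylesterases, enzymes that split ester drugs and lipids, 12 lay below 0 with a median of -0.37, among them Ces1g at -2.64 and the bright Ces2b, at 54375 and 33467 (-0.64). Glutathione S-transferases had 0 of 24 past 2-fold and a median of 0.16.

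Carriers of amino acids had 5 lower and 0 higher of 52, with a median of -0.10. The lower share was 9.62%, against 2.85% of all genes. Slc7a8, a basolateral exchanger of neutral amino acids, read 3273 and 1461 (-1.11), though its second probe gave 0.26. Slc7a7 and Slc7a9, exchangers of basic amino acids, read 39286 and 21529 (-0.81), and 7230 and 3991 (-0.80). Of 17 genes listed for uptake and efflux of the drug, 0 passed 2-fold. The megalin gene Lrp2 differed by -0.13, the organic anion transporter gene Slc22a6 read 120860 and 116430, and Slc47a1, which encodes the efflux carrier MATE1, differed by 0.06. The lowest were the efflux pump genes Abcc4 at -0.82 and Abcc2 at -0.59.

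Of 26 tubular injury markers 1 passed 2-fold (3.85%, against 4.44% of all genes), Havcr1, and it was lower. Lcn2, the gene of the injury marker NGAL, read 651 and 642. Clu, Spp1, Krt8 and Vim, which mark stressed or dedifferentiated tubules, differed by -0.06, 0.47, 0.26 and -0.04. The list median was -0.04.

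Among nephron segments, the last proximal tubule segment had 11 of 12 markers above 0 and a median of 0.30, with the urate-linked carrier gene Slc22a13 at 1.08. The earlier segments had a median of -0.07. Aqp2, the vasopressin-regulated water channel gene of principal cells, read 4983 and 7532 (0.65), and Aqp4, its basolateral partner, 387 and 932 (1.33). Of 10 aquaporin genes 8 lay above 0. In intercalated cells the proton pump gene Atp6v1b1 stood out at -1.59, while the median of their 12 markers was 0.12.

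Most cell cycle genes lay above 0, by small amounts. Of 29 measured genes 28 lay above 0 and 2 passed 2-fold, with a median of 0.44. A subset of 13 mitotic genes, drawn up after their values were seen, had a median of 0.84 and ran from 0.45 to 1.38, whereas the 6 Mcm helicase genes had a median of 0.03 and ran from 0.00 to 0.43. Top2a, a topoisomerase of dividing cells, read 116 and 205 (0.88), Ccnb1, a mitotic cyclin, 80.8 and 149.8 (0.95), and Mki67 420 and 609 (0.59). At ZT2 the list median was -0.62, with Top2a at -1.105.

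Urothelial genes, of the lining of the renal pelvis, centred above 0. Of 11 measured markers 9 lay above 0 and 3 passed 2-fold, Upk1a, Krt5 and Upk3b, with a median of 0.63 and a summed signal of 14950 and 17840. The uroplakin genes Upk1a, Upk3a and Upk2, which build the urothelial plaque, read 808 and 1795 (1.21), 371 and 707 (0.99), and 350 and 511 (0.60). Krt5, a keratin of basal cells, read 199 and 478 (1.33), and Upk3b 14.8 and 38.5 (1.44). Upk3bl, a related gene outside that list, was past 2-fold by both of its probes (1.70 and 2.14). Gata3, a transcription factor gene shared with the collecting duct, differed by -0.10. The list median at ZT2 was -0.56, and the part of sampled renal pelvis in these values was not tested.

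Adrenal genes were dim, and 5 of the 12 measured were above background on a single array, so that their count and median depend on that filter. Over the 7 genes above background on both arrays 2 were higher and 0 lower, with a median of 0.26. With the bounds 6 of 12 were higher, with a median of 0.85. Cyp21a1, an enzyme gene of corticosteroid synthesis, read 94.5 and 237 by its brightest probe (1.39) and differed by 0.34 by its other. Cyp11b1 read 2.34 and 40.6, at least 3.76-fold higher. Chgb, named above, was the highest member of this list, with a bound of 2.51. Star, the cholesterol carrier gene of steroid cells, read 51.1 and 78.4. The summed signal of the list was 1038 and 1376, and the part of adrenal tissue in these differences was not tested.

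Several large families hardly differed. Cytosolic ribosomal proteins had 0 of 83 past 2-fold, a median of 0.08 and 70 members above 0. The respiratory chain had 80 of 95 above 0 and a median of 0.13, with 2 members lower, Cox7b2 (-2.11) and Cox6a2 (-1.89), isoforms known from testis and muscle. Zinc finger proteins had 7 lower and 0 higher of 343 and a median of 0.01. Olfactory receptors, of which 186 of 1086 were above background at all, had 3 higher and 2 lower. Of 14 housekeeping genes 12 lay from -0.23 to 0.14, while Gusb, a lysosomal glucuronidase gene often used as a reference, read 10814 and 3852 (-1.43, and -1.09 by a second probe), and the transferrin receptor gene Tfrc differed by 0.98. Cathepsins, proteases of the lysosome, had 12 of 14 below 0, with a median of -0.23 and none (0) past 2-fold.

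Immediate early genes, which respond within minutes to signals and to handling, had 3 higher and 0 lower of 24. Fos read 16.2 and 47.7 (1.61), Cyr61 546 and 1345 (1.36) and Nr4a1 441 and 854 (1.01). Egr1 and Junb, of the same list, differed by -0.03 and -0.38, and the list median was 0.08. Dusp1, a phosphatase gene that stress hormones induce, differed by -0.79.

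Different probes of a gene, which share the same RNA, show how far a difference depends on the stretch of transcript that is read. They are no replicates of the treatment. Of 7481 genes with at least 2 probes above background on both arrays, 142 passed 2-fold by the brightest probe, 50 higher and 92 lower. All probes had the sign of the brightest in 115 of the 142, 81.0%, and all were past 2-fold in 62, 43.7%. The second probe was past 2-fold the same way in 68 genes and under 0.25 in the same direction, or opposite, in 31. Agreement grew with size, since all signs matched in 51.6% of genes under 0.25, 64.7% from 0.25 to 0.5 and 73.3% from 0.5 to 1. Higher genes had matching signs in 46 of 50 cases and lower genes in 69 of 92.

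**Figure D4:**
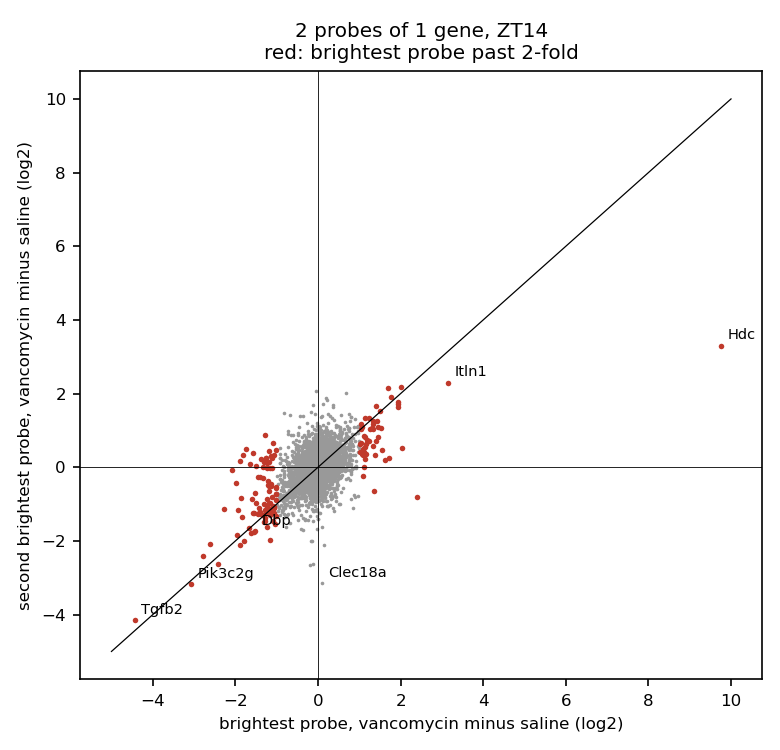
Each point is a gene with at least 2 probes above background on both arrays, with the difference (log2) by its brightest probe on the horizontal axis and by the next brightest on the vertical axis. Red points passed 2-fold by the brightest probe. Tgfb2, Pik3c2g and Dbp lie near the diagonal of equal values, and Hdc lies under it with 9.75 and 3.30.

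The genes for which every probe passed 2-fold were 19 higher and 43 lower. The higher ones, besides Hdc and Itln1, included Rbm45, an RNA-binding protein gene (2.01 and 2.18), Car3, a carbonic anhydrase gene of fat and muscle (1.72 to 2.42 over 3 probes), Slc25a25, a mitochondrial carrier of ATP (1.18 to 1.39 over 4) and the complement gene C4b (1.101 and 1.46). Car3 read 1157 and 4251, and C4b 1189 and 3148. At ZT2 both had the other sign, with -1.62 and -1.02. The lower ones, besides Tgfb2 and Scrn2, included Dhrs9, a retinol dehydrogenase gene (-2.41 and -2.62), Il18bp, a decoy for interleukin 18 (-1.95 and -1.83), Mas1, a receptor of the renin-angiotensin system (-1.55 and -1.77), and Pik3c2g, a lipid kinase gene (-1.47 to -3.16 over 3 probes). Pik3c2g read 1583 and 182 by its brightest probe, and its ZT2 difference was 1.20.

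Where probes disagreed most, the gene cannot be given a single value. Clec18a, a C-type lectin gene, had a probe at 204 and 208 (0.09) and another at 204 and 22.2 (-3.15). Ddx39b, an RNA helicase gene, had -0.13, 0.06 and -2.62, the last from a probe much dimmer than the brightest. Itga10, an integrin gene, had -0.20 and -2.66, and Airn, a noncoding RNA gene, ran from 0.66 to -2.78. Of 13637 genes with a single probe on the array, 5.51% were past 2-fold, against 3.02% of 10353 genes with more, and for the former no such check exists.

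Injection at ZT2 gave its own pair of arrays, on another slide, and the difference between the times was not tested. The immunoglobulin median was -2.53 at ZT2 and -1.24 at ZT14. T and NK cell markers had medians of -0.69 and -0.74, macrophage markers -0.46 and -0.47, and endothelial markers -0.35 and -0.32. Among the lists with medians of opposite sign were MHC genes (0.07 at ZT2 and -0.94 at ZT14), cell cycle genes (-0.62 and 0.44) and urothelial markers (-0.56 and 0.63). Erythroid markers had medians of -1.85 and 0.20, and adrenal markers of 2.68 and 0.85.

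**Figure D5:**
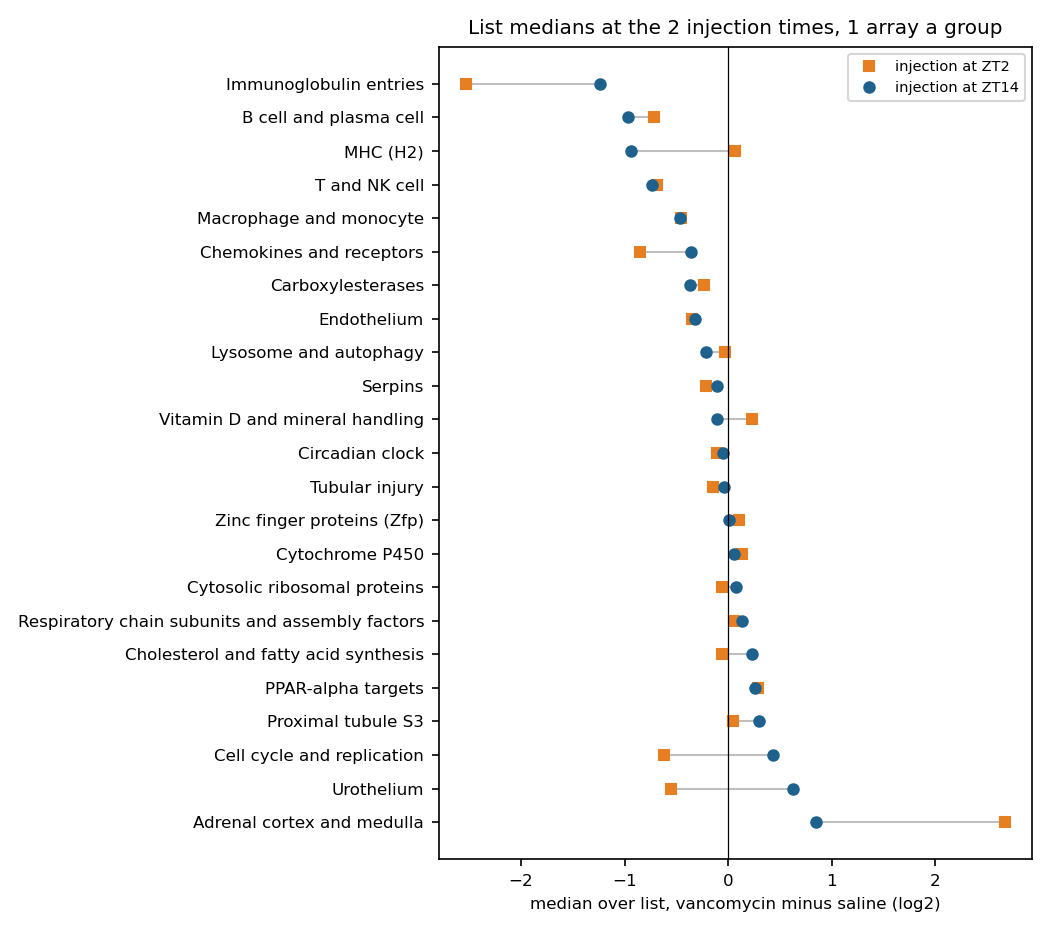
List medians of vancomycin minus saline (log2) for injection at ZT14 (blue circles) and at ZT2 (orange squares), 1 array a group. The 2 symbols nearly coincide for macrophage, endothelial and T cell markers and lie on opposite sides of 0 for MHC, cell cycle and urothelial genes.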

How the data were processed

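Spot values were the deposited processed signal, an intensity already background-subtracted, per the file headers; these name Feature Extraction 10.7.1.1, and the submitters' processing notes 9.5.1.1. Control and outlier-flagged spots were left out, each array's 75th percentile was subtracted from log2 signal, spots of a probe were averaged, and a gene took its brightest probe. A probe counted as above background when at least 50% of its spots did. The deposited value table, log2-transformed here, was read as the authors' quantile-normalized intensity and used only as an alternative. Normexp used limma 3.58.1 with an offset of 50. Members and lists were chosen with earlier results of these data known. Genes were named by rule: the largest measured differences and bounds each way, and those past 2-fold by every probe. The rule also took the extremes and the brightest member of each list, and the largest disagreements between probes. Any member of the clock, heat shock, injury and drug transport lists could be named, and not all were. Other genes named were chosen after their values were seen. With 1 array a group no test was possible. Some genes are not reported here.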

Additional observations from a re-analysis of the deposited data

Results flagged for a closer look

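Of the genes named that were above background on at least 1 array at ZT2, 9 passed 2-fold in opposite directions at the 2 injection times, each with 1 array a group, and the difference between the times was not tested. Hdc differed by 9.75 at ZT14 and -7.46 at ZT2, Car3 by 1.94 and -1.62, C4b by 1.46 and -1.02, Krt5 by 1.33 and -1.39, and Gbp8 by 1.16 and -1.43, where the ZT2 value is a bound. With the opposite order of signs, H2-DMb1 differed by -4.80 at ZT14 and 1.08 at ZT2, Havcr1 by -3.56 and 3.89, Pik3c2g by -3.06 and 1.20, and Cyp27b1 by -1.5 and 1.13.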

How the results depend on the processing

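The counts of 380 higher and 684 lower genes were 110 and 257 with normexp, 180 and 450 with a pseudocount of 16, and 1450 and 1714 with no filter on dim probes. They stayed within 1.5 times under median centring, quantile normalization, the authors' values, genes above background on both arrays only, and the mean or median over probes. Of 109 named genes past 2-fold, 75 were still past it the same way with normexp. H2-Q10, at -1.02 by its brightest probe, was 0.42 by the mean and 0.29 by the median of its probes. Of 97 list medians none (0) at 0.25 or more from 0 changed sign under these alternatives, while some nearer to 0 did: 55 lists had a median below 0, and 45 to 54 under the alternatives. In 84 cases a list median moved by at least 0.068, the SD of a single-spot difference from repeated spots. Dim genes carry the least certain sizes. No paired analysis was possible because each group had 1 array. Leaving out an array was not possible for the same reason.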

Other observations

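Lysosome and autophagy genes had 18 of 25 members below 0 and a median of -0.21, with 0 past 2-fold. Npc2, a lysosomal cholesterol carrier gene, read 8404 with saline and 4303 with vancomycin, a difference of -0.91. Genes of TGF-beta signalling and fibrosis had 3 lower and 0 higher of 25 and a median of -0.21, which was -0.75 at ZT2. Besides Tgfb2 these were Loxl1, a crosslinker of elastic fibres, at -1.44, and Ltbp2, a matrix protein gene, at -1.17. Smooth muscle and stromal markers had a median of -0.21 at ZT14 and -1.25 at ZT2.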
